A study of Arabidopsis thaliana with 6 samples.

Results

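The chloroplast genome genes of Arabidopsis thaliana were followed through 6 genotypes: every row of the deposited expression table whose identifier begins with ATCG, the prefix of genes encoded in the plastid. These were 133 of the 33602 rows, against 33323 nuclear and 146 mitochondrial rows. By function, 88 rows encode proteins, 8 encode ribosomal RNA and 37 encode transfer RNA. The protein-coding rows comprised 5 of photosystem I, 15 of photosystem II, 6 of the cytochrome b6f complex, 6 of the ATP synthase, 12 of the NADH dehydrogenase-like complex (NDH), the large subunit of Rubisco, 26 ribosomal proteins, 4 subunits of the plastid RNA polymerase and 13 other proteins.

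RNA came from the aerial tissue of 18-day-old plants raised at 22 °C under a 16 h day and an 8 h night, first in a greenhouse (6 days) and then in soil (12 days). The genotypes were the triple mutant rdr6-11 ein5-1 ski2-3, the double mutant ein5-1 ski2-3, the single mutants ein5-1, ski2-3 and rdr6-11, and wild-type Col-0, with 1 library each. The labels describe 1 protocol for all 6 libraries: 10 µg of total RNA, depleted of ribosomal RNA with a plant leaf kit, sheared and copied from random primers. EIN5 is a cytoplasmic exonuclease that degrades RNA from its 5′ end, SKI2 is the helicase that feeds the cytoplasmic exosome, and RDR6 copies RNA into the double-stranded form from which small interfering RNAs are cut. How many plants entered each library is not given in the labels.

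The plastid genome of land plants carries genes for the photosynthetic complexes and for the plastid's own gene expression machinery. They are read by 2 kinds of RNA polymerase: a bacterial type, whose core is encoded by rpoA, rpoB, rpoC1 and rpoC2 in the plastid and whose sigma factors come from the nucleus, and a phage type encoded entirely in the nucleus. The bacterial type reads photosynthesis genes in green leaves, whereas rpoB, rpoC1, rpoC2 and accD are classic genes of the phage type. Most plastid genes are copied as long transcripts of several genes that are then cut, trimmed and protected by nuclear-encoded RNA-binding proteins, so the RNAs of neighbours in 1 transcript can reach different levels.

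The libraries held between 20205663 and 33100379 reads, of which 8973503 to 16075195 fell on chloroplast rows. That was 48.6% of the reads in the triple mutant, 48.6% in the double mutant, 47.9% in ein5-1, 53.9% in ski2-3, 52.4% in rdr6-11 and 44.4% in Col-0. In RNA of whole tissue, fewer chloroplasts or green cells and less RNA per chloroplast cannot be told apart. The 4 rows of 16S and 23S ribosomal RNA, which the depletion kit is meant to remove, were left out of the total to which all other rows were scaled. A row counted as measured in a comparison with at least 100 reads in the higher library, and as different at 2-fold or more, which is a rule of size. With 1 library per genotype no test is possible, no value below has a replicate check, and the intervals are exact 95% intervals (Clopper-Pearson) of counting error only. The scale of nuclear reads, here and below, uses library sizes by a trimmed mean of M-values over nuclear genes. On it, the targeted genes were lower in every library that carries their alleles. Against Col-0, EIN5 stood at a log2 ratio of -1.26 in the triple mutant, -0.60 in the double mutant and -1.05 in ein5-1. The gene of SKI2 (AT3G46960) stood at -0.78 in the triple mutant, -0.43 in the double mutant and -0.68 in ski2-3, and RDR6 at -1.53 in the triple mutant and -1.76 in rdr6-11. The median of the 3 genes in ein5-1 was -0.47, so a gene whose allele ein5-1 does not carry was lower there too. Scaled to the total of nuclear reads, ratios of the double mutant to Col-0 move up, with the median of 6 sigma factors going from -0.18 to 0.30. SKI2 is then not lower in the double mutant. All 5 nuclear leaf markers (RBCS1A, CAB1, CAB2, CA1 and GAPA) had reads in every library. On the trimmed-mean scale they summed to 33160 reads per 1000000 of library size (CPM) in the triple mutant, 14093 in the double mutant, 26340 in ein5-1, 25239 in ski2-3, 37137 in rdr6-11 and 18586 in Col-0. They were lowest in the double mutant on that scale. As a plain share of nuclear reads they were lowest in Col-0, at 203383 of 10942840 reads, beside 324680 of 16593256 in the double mutant. Their part in the results below was not tested. The 6 root markers summed to 11 to 57 reads, with up to 3 of them at 0, and the 4 flower markers to 26 to 43 reads, with at most 1 at 0.

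The chloroplast profiles of the libraries fell into 3 sets. Over the 88 protein-coding rows, the SD of the log2 ratio was 0.115 between the triple mutant and rdr6-11 and 0.174 between ein5-1 and ski2-3. It was 0.353 between the double mutant and ein5-1 and 0.297 between the double mutant and ski2-3. Between any mutant and Col-0 it was 0.459 to 0.616, and between the pair of the triple mutant and rdr6-11 and the set of ein5-1, ski2-3 and the double mutant it was 0.845 to 0.984. The libraries also differed in other features. The large ribosomal RNA rows took 2.19% of chloroplast reads in the triple mutant, 0.121% in the double mutant, 0.0607% in ein5-1, 0.0714% in ski2-3, 2.2% in rdr6-11 and 9.89% in Col-0. Among all genes with 1 to 20 reads, an even count was found in 81.4% in the triple mutant and 81.9% in rdr6-11, against 38.5% to 41.6% in each of the remaining libraries. Over chloroplast rows with reads, even counts made up 56.9% in the triple mutant and 62.2% in rdr6-11, against 43.6% to 58.0% in the remaining libraries. Mostly even counts are not counts of independent reads, so counting intervals that involve those 2 libraries are taken as too narrow, by an amount that was not computed. With 1 library each, genotype and such features of a library cannot be told apart across sets. Comparisons within a set (the triple mutant against rdr6-11, and the double mutant against each of its single mutants) cross these features less, and the results below keep the 2 kinds separate. The large ribosomal RNA share still differed between the double mutant (0.121%) and ein5-1 (0.0607%) or ski2-3 (0.0714%). The sets were also read from these same 88 rows, and library differences within a set were not tested. Over measured nuclear genes, the SD of the log2 ratio of the double mutant was 0.780 against ein5-1, 0.816 against ski2-3 and 0.853 against Col-0. There the double mutant lay nearly as far from its single mutants as from Col-0. The nuclear SD was 0.451 for ein5-1 and 0.459 for ski2-3 against Col-0, and 0.344 for the triple mutant against rdr6-11. The comparisons of the double mutant with its 2 single mutants were added after the values had been seen.

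2 genes dominated the chloroplast RNA. psbA (ATCG00020), the D1 protein of the photosystem II reaction centre, took 43.6% of the scaled reads in the triple mutant, 53.6% in the double mutant, 39.3% in ein5-1, 42.4% in ski2-3, 44.4% in rdr6-11 and 44.1% in Col-0. rbcL (ATCG00490), the large subunit of the carbon-fixing enzyme Rubisco, took 25.7% in the triple mutant, 19.0% in the double mutant, 30.5% in ein5-1, 27.9% in ski2-3, 24.2% in rdr6-11 and 26.3% in Col-0. The double mutant thus had the highest psbA share and the lowest rbcL share of the 6 libraries, while the sum of both genes stayed between 68.6% and 72.6%. Of the reads on the other 86 protein-coding rows, photosystem I genes took 20.1% in the triple mutant, 30.3% in the double mutant, 24.8% in ein5-1, 26.9% in ski2-3, 20.7% in rdr6-11 and 25.7% in Col-0. The share of photosystem II genes was likewise highest in the double mutant (37.8%), and that of RNA polymerase genes lowest there (1.24%, against 1.72% to 1.99% in the remaining libraries).

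**Figure D1:**
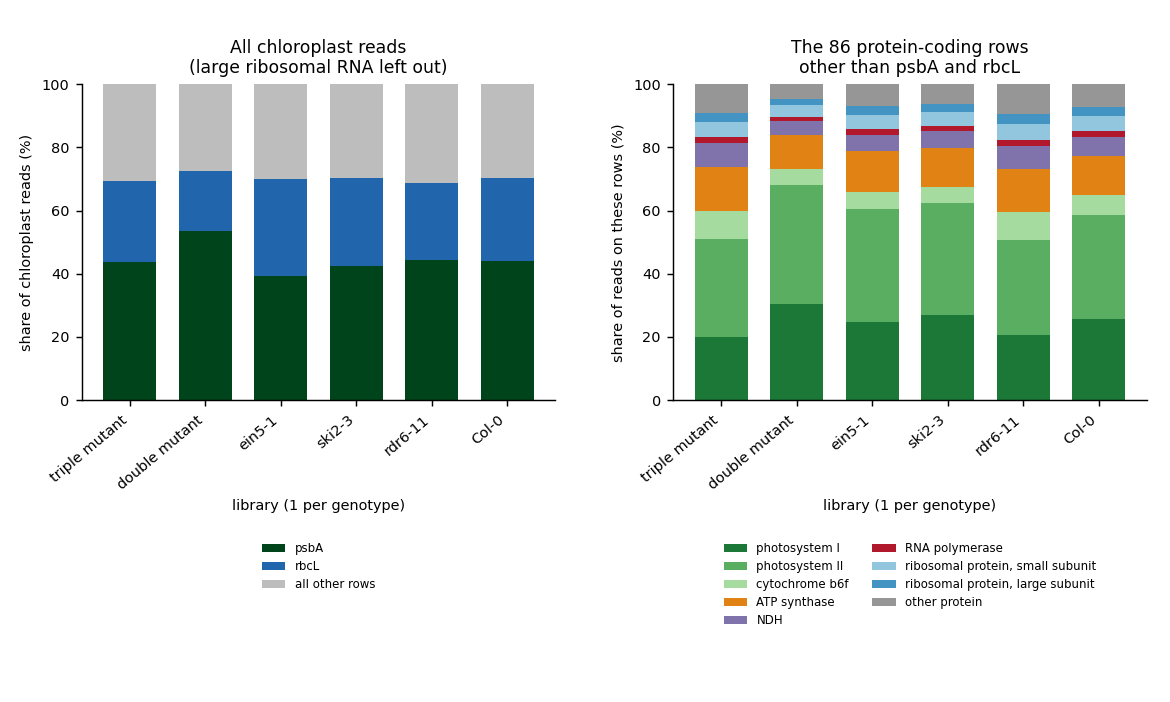
Share of chloroplast reads per library, in percent: psbA, rbcL and all other rows on the left, and on the right the functional classes among the 86 protein-coding rows other than psbA and rbcL. The double mutant has the largest psbA part (53.6%) and, on the right, the largest photosystem parts.

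Because psbA alone takes so many reads, a change in its share moves every other row the other way. Each ratio is therefore given as a relative log2 ratio, meaning the log2 ratio less the median of the 88 protein-coding rows in the same comparison, a quantity that does not depend on how the libraries are scaled. On the scale of the chloroplast total, the median subtracted was -0.47 for the double mutant against Col-0, -0.50 for the double mutant against ein5-1, -0.34 for the double mutant against ski2-3 and -0.06 for the triple mutant against rdr6-11. It was 0.02 for ein5-1, -0.11 for ski2-3, 0.37 for rdr6-11 and 0.30 for the triple mutant, each against Col-0, and 0.84 for the triple mutant against the double mutant. Levels are compared between genes per length, as the authors' deposited RPKM values expressed in parts per 1000000 (ppm) of their sum over chloroplast rows without the 4 large ribosomal RNA rows.

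Per length in Col-0, psbA stood at 443092 and rbcL at 195028 ppm, followed by psbC (31946), the CP43 antenna protein of photosystem II. Next came atpH (24084), the membrane ring subunit of the ATP synthase, psbB (20345), the CP47 antenna protein, and rps14 (19363), a small-subunit ribosomal protein read together with psaA and psaB. In the remaining classes the most abundant genes were psaA (17436), petG (12437), rpl14 (3625), ndhE (2801), rpoA (1433) and, among other proteins, matK (3887). The RNA polymerase was the class with the lowest leading gene, and its lowest member, rpoC2, stood at 425.

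The triple mutant and rdr6-11, which differ by the loss of EIN5 and SKI2, had nearly the same chloroplast RNA. None of the 115 measured rows was at least 2-fold higher and none at least 2-fold lower in the triple mutant, where 1.15% of nuclear genes were higher and 0.274% lower by the same rule. Among protein-coding rows the log2 ratio lay within 0.25 of 0 in 86 of 88. The exceptions were 2 short genes with few reads, petN (0.54 on the chloroplast total, 448 against 305 reads), a small subunit of cytochrome b6f, and psbT (0.33, 782 against 614 reads), a small subunit of photosystem II. psbA and rbcL stood at relative log2 ratios of 0.03 and 0.15, and class medians lay between -0.10 for the RNA polymerase and 0.15 for cytochrome b6f. Scaled to nuclear genes the whole set shifted by -0.27, and 1 row then passed 2-fold.

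The same loss of EIN5 and SKI2 with RDR6 present, the double mutant against Col-0, gave a wide spread. Of 109 measured rows, 2 were at least 2-fold higher (1.83%) and 32 lower (29.4%), against 7.74% higher and 7.92% lower among nuclear genes. This split rests on the scaling: under median-of-ratios scaling it was 8 higher and 11 lower (10.1%), which is near the nuclear share. The 22 protein-coding rows past 2-fold had log2 ratios of -1.77 to 1.5 in the double mutant against Col-0, and -0.16 to 0.33 in the triple mutant against rdr6-11. Over all 88 rows, 20 lay within 0.25 of 0 in the first comparison and 86 in the second. Whether the 2 effects differ could not be tested, and the first comparison crosses 2 sets of libraries while the second does not.

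**Figure D2:**
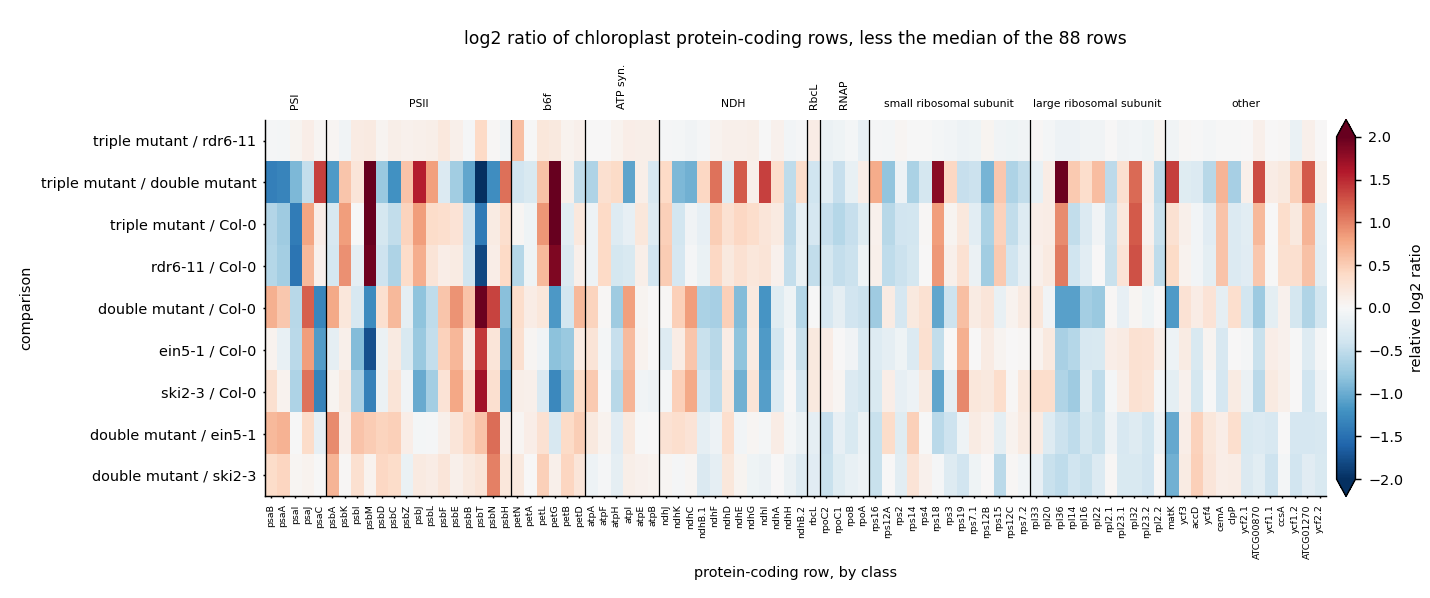
Relative log2 ratio (colour; the log2 ratio less the median of the 88 protein-coding rows) of 86 of the protein-coding rows (columns, by class) in the 9 comparisons (rows). The triple mutant against rdr6-11 is nearly blank, the 5 comparisons with Col-0 share that library, and the rows of the double mutant against its single mutants show photosystem rows above and matK, RNA polymerase and many ribosomal protein rows below the median.

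Within its own set, the double mutant differed from both single mutants by class of gene. Photosystem rows were relatively higher, with 15 of 19 measured rows above the median against ein5-1 (class median 0.37) and 17 of 19 against ski2-3 (0.23). Ribosomal protein rows were relatively lower, with 19 of 26 below the median in each (-0.24 against ein5-1 and -0.23 against ski2-3), and all 4 RNA polymerase rows lay below it (-0.23 and -0.19). Cytochrome b6f stood at 0.21 and 0.22, whereas the ATP synthase (0.04 and 0.02) and NDH (0.00 and -0.06) were near the median. The median of the RNA polymerase lay below that of the photosystems by a log2 difference of -0.61 against ein5-1 and -0.42 against ski2-3, that of the ribosomal proteins by -0.61 and -0.47, that of NDH by -0.37 and -0.29, and that of the ATP synthase by -0.33 and -0.21. Against Col-0 these differences in the double mutant were -0.78 for the RNA polymerase, -0.46 for ribosomal proteins, -0.59 for NDH and -0.39 for the ATP synthase, and in the triple mutant against rdr6-11 they were -0.17, -0.13, -0.09 and 0.03. The 2 comparisons with single mutants share the double mutant library, so the second is no independent repeat of the first. Both copies of an inverted-repeat gene count as rows in these tallies, although their reads cannot be told apart. With copies summed, the ribosomal protein median differed from that of the photosystems by -0.62 against ein5-1 and -0.49 against ski2-3. For NDH the difference was then -0.33 and -0.26. In the double mutant against Col-0 the order was alike for the photosystems (0.43, 12 of 20 above) and the RNA polymerase (-0.36, 0 of 4 above), but not for ribosomal proteins (-0.03, 13 of 26 above). Few single rows passed 2-fold on the chloroplast total: 3 of 102 measured rows (all of large ribosomal RNA) were higher and 3 lower against ein5-1, where 6.11% of nuclear genes were higher and 6.59% lower, and 0 were higher and 1 lower against ski2-3, where 6.28% were higher and 7.1% lower. Under median-of-ratios scaling these counts became 7 and 0 against ein5-1 and 4 and 0 against ski2-3, and scaled to nuclear genes 3 and 11 against ein5-1 and 0 and 43 against ski2-3.

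**Figure D3:**
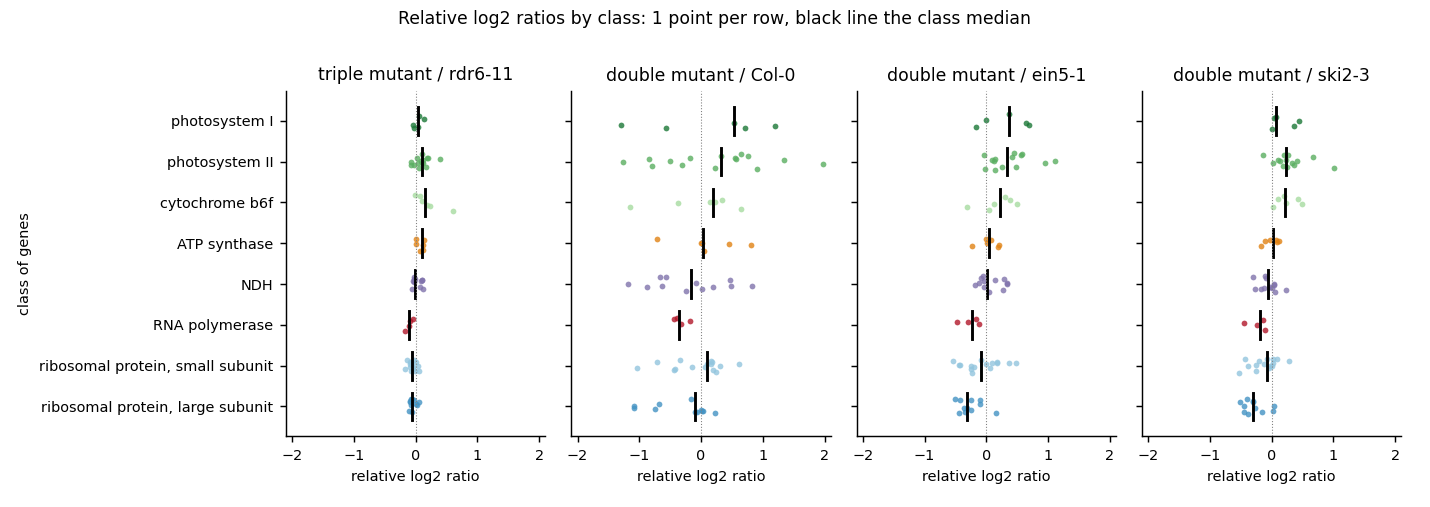
Relative log2 ratios of the measured protein-coding rows by class in 4 comparisons; each point is 1 row, the black line is the class median and the dotted line the median of all 88 rows. Points of the triple mutant against rdr6-11 stay close to the dotted line, and in the double mutant the photosystem medians lie right of it and the RNA polymerase median left of it in all 3 panels.

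Among photosystem genes, the large core subunits lay above the median in the double mutant. psaA (ATCG00350) and psaB (ATCG00340) encode the reaction-centre proteins of photosystem I. psaA had 11822 ppm in the triple mutant, 18467 in the double mutant, 16324 in ein5-1, 17393 in ski2-3, 12674 in rdr6-11 and 17436 in Col-0. psaB had 12674 in the triple mutant, 20543 in the double mutant, 18665 in ein5-1, 20300 in ski2-3, 13453 in rdr6-11 and 17149 in Col-0. Both genes were highest in the double mutant and lowest in the triple mutant and rdr6-11. The relative log2 ratio of psaA in the double mutant was 0.53 against Col-0 (interval 0.53 to 0.54), 0.69 against ein5-1 and 0.44 against ski2-3, and that of psaB was 0.71, 0.65 and 0.37. In the triple mutant against rdr6-11 they stood at -0.04 and -0.02.

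psbA also lay above the median in the double mutant, at 0.75 against Col-0, 0.95 against ein5-1 and 0.68 against ski2-3, against 0.03 in the triple mutant against rdr6-11. The antenna and core genes psbB, psbC and psbD (the D2 protein) lay at 0.57, 0.65 and 0.32 against Col-0, at 0.41, 0.48 and 0.44 against ein5-1 and at 0.20, 0.37 and 0.41 against ski2-3. psbN (ATCG00700), whose product helps to assemble photosystem II, had 8030 ppm in the triple mutant, 11967 in the double mutant, 7878 in ein5-1, 7588 in ski2-3, 8240 in rdr6-11 and 6416 in Col-0. It was the highest protein-coding row of the double mutant against either single mutant, with relative log2 ratios of 1.11 (1.08 to 1.15) against ein5-1 and 1.01 (0.98 to 1.04) against ski2-3. psbN lies between psbT and psbH on the other strand, and since use of strand in the counting is not stated, its value is uncertain and may include RNA of the psbB unit that spans it.

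Other small photosystem genes differed from Col-0 in ein5-1, ski2-3 and the double mutant, in comparisons that share the Col-0 library. psbT (ATCG00690) had 514 ppm in the triple mutant, 3522 in the double mutant, 3375 in ein5-1, 3737 in ski2-3, 409 in rdr6-11 and 1231 in Col-0. Its level was thus above Col-0 in ein5-1, ski2-3 and the double mutant and below Col-0 in the triple mutant and rdr6-11. psaJ, a small subunit of photosystem I, had 11568 ppm in the double mutant, 12743 in ein5-1 and 14009 in ski2-3, against 6932 in Col-0. psaC, which carries the terminal iron-sulfur clusters of photosystem I, ran the other way, with 2315 in the double mutant, 3706 in ein5-1 and 2952 in ski2-3, against 7803 in Col-0. For psaC the relative log2 ratio was -1.30 in the double mutant against Col-0 but -0.17 against ein5-1 and 0.00 against ski2-3.

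The plastid RNA polymerase genes were low in the double mutant. rpoB, the beta subunit, had 370 ppm in the triple mutant, 257 in the double mutant, 451 in ein5-1, 361 in ski2-3, 397 in rdr6-11 and 459 in Col-0. rpoC2, the beta'' subunit, had 342 in the triple mutant, 249 in the double mutant, 490 in ein5-1, 434 in ski2-3, 387 in rdr6-11 and 425 in Col-0. Both levels were lowest in the double mutant, on a scale that falls as the share of psbA rises. As relative log2 ratios, rpoB, rpoC1 and rpoC2 lay lower in the triple mutant than in the double mutant (-0.45 to -0.14). The relative log2 ratios of rpoA (the alpha subunit), rpoB, rpoC1 (the beta' subunit) and rpoC2 were -0.12, -0.30, -0.17 and -0.47 against ein5-1 and -0.11, -0.14, -0.24 and -0.45 against ski2-3. Against Col-0 they were -0.44, -0.39, -0.17 and -0.32, and none passed 2-fold on the chloroplast total. In the triple mutant against Col-0 the class also lay below the median (-0.47, 0 of 4 above), as it did in rdr6-11 against Col-0 (-0.40, 0 of 4 above), so a low relative level against Col-0 was not particular to the double mutant. accD, the plastid subunit of acetyl-CoA carboxylase and another gene of the phage-type polymerase, did not share the low values of rpoB, rpoC1 and rpoC2, with 0.15 against Col-0 and 0.47 against each of ein5-1 and ski2-3.

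matK (ATCG00040) was the protein-coding row furthest below the median when the double mutant was set against either single mutant. It encodes the plastid maturase, which helps to splice plastid introns, and lies inside the intron of trnK. Its level was 5367 ppm in the triple mutant, 1294 in the double mutant, 3726 in ein5-1, 3215 in ski2-3, 5908 in rdr6-11 and 3887 in Col-0. The double mutant was the lowest of the 6 libraries, and the next lowest, ski2-3, was at 3215. The relative log2 ratio was -1.13 against Col-0 (-1.16 to -1.11), -1.02 against ein5-1 (-1.04 to -1.0) and -0.96 against ski2-3 (-0.98 to -0.94), and -0.08 in the triple mutant against rdr6-11. It was the single measured row at least 2-fold lower against ski2-3 on the chloroplast total (-1.30), and 1 of 3 against ein5-1 (-1.52), with rps18 (-1.04) and rpl14 (-1.01). Reads of the unspliced trnK precursor cannot be told apart from matK messenger RNA.

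**Figure D4:**
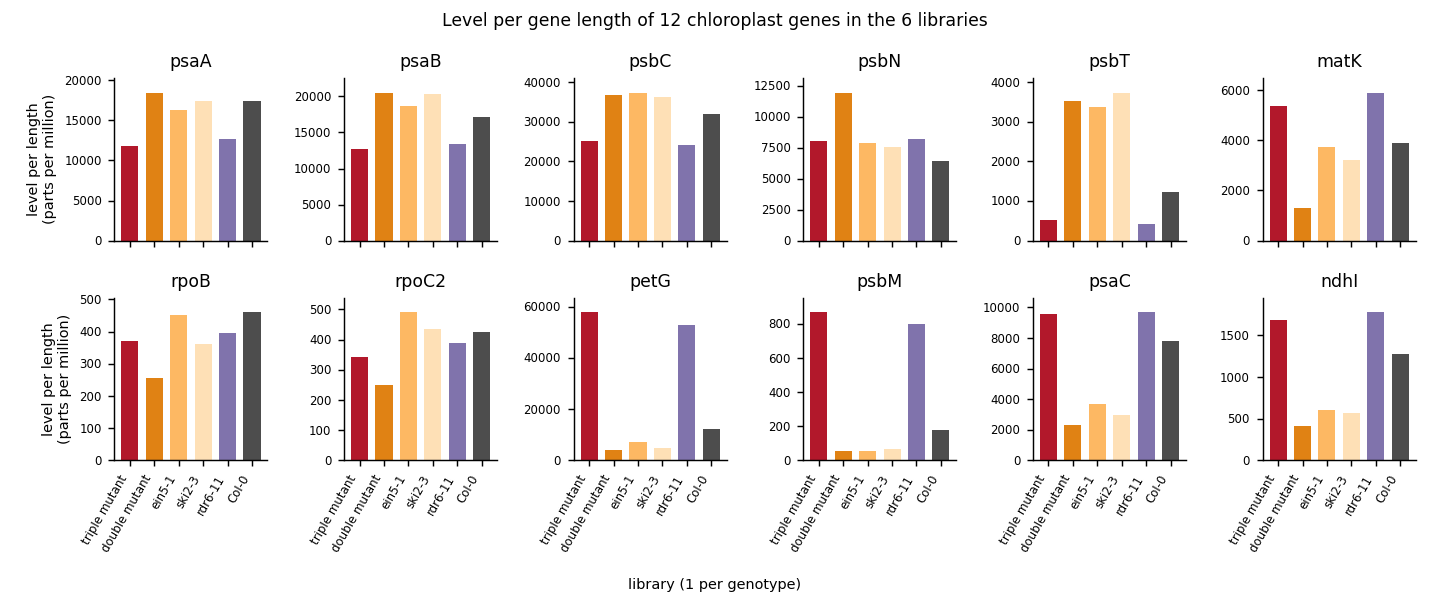
Level per gene length, in parts per 1000000 (ppm) of the chloroplast sum, of 12 chloroplast genes in the 6 libraries (1 bar per library, triple mutant at the left and Col-0 at the right). matK is lowest and psbN highest in the double mutant, while petG and psbM are high in the triple mutant and rdr6-11.

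Among single ribosomal protein genes, rpl36 stood at a relative log2 ratio of -1.09 and rpl14 at -1.08 in the double mutant against Col-0. Against ein5-1 they stood at -0.42 and -0.51, and against ski2-3 at -0.51 and -0.40. rps18, in the petL unit, stood at -1.04 against Col-0 and -0.54 against ein5-1, but -0.03 against ski2-3. rps14, which is read with psaA and psaB, lay with them above the median, at 0.19 against Col-0, 0.48 against ein5-1 and 0.27 against ski2-3. The 15 small-subunit rows had class medians of -0.09 and -0.08 against ein5-1 and ski2-3, and the 11 large-subunit rows -0.32 and -0.31.

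NDH and ATP synthase rows held no common direction. The NDH complex carries electrons around photosystem I. Of its 12 rows, 5 lay above and 7 below the median in the double mutant against Col-0, from ndhI (-1.18) to ndhC (0.83), and 5 were at least 2-fold lower on the chloroplast total. Their relative log2 ratios against ein5-1 and ski2-3 ran from -0.30 to 0.34, with ndhI at -0.05 and -0.11. ndhF, the largest subunit, stood at -0.66 against Col-0, -0.09 against ein5-1 and -0.18 against ski2-3, and ndhB.1 and ndhB.2 at -0.63 and -0.57 against Col-0. Of the ATP synthase, atpA and atpB, the alpha and beta subunits of the catalytic head, stood at 0.45 and 0.00 against Col-0, and at 0.19 and 0.00 against ein5-1. In the cytochrome b6f complex, which links the photosystems, petA, petB and petD stood at 0.15, -0.37 and 0.65 against Col-0 and at 0.13, 0.38 and 0.50 against ein5-1. Among other proteins, clpP, the plastid protease subunit, stood at 0.33 against Col-0, while ycf1.2 and both copies of ycf2, the longest genes of the plastid genome, stood at -0.35 to -0.37.

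Against Col-0, 4 of 88 protein-coding rows passed 2-fold in ein5-1 and 9 of 88 in ski2-3, on the chloroplast total. In ein5-1 against Col-0, 1 of 108 measured rows was at least 2-fold higher and 13 lower, against 1.46% and 2.03% of nuclear genes. In ski2-3 against Col-0, 1 of 107 was higher and 18 lower, against 2.15% and 1.3% of nuclear genes. Of the lower rows, 6 in each comparison were ribosomal RNA and 4 were transfer RNA, which leaves 3 protein-coding rows in ein5-1 and 8 in ski2-3. Over all measured rows, scaling to nuclear genes gave 8 higher and 10 lower in ski2-3, and the authors' deposited RPKM ratios gave 3 higher and 10 lower in ein5-1. Of the protein-coding rows in ski2-3, scaling to nuclear genes left 6 higher and 0 lower. The higher row was psbT in both, and psaJ came next, at 0.83 in ein5-1 and 1.09 in ski2-3 as relative log2 ratios. The lowest protein-coding row was psbM, a small subunit of photosystem II, at -1.76 in ein5-1 and -1.36 in ski2-3. Next came ndhI, psaC and psbH in ein5-1 (-0.96 to -1.13) and psaC, petG, ndhI and psbH in ski2-3 (-1.10 to -1.33). All of these comparisons, and that of the double mutant, share the Col-0 library.

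The triple mutant and rdr6-11 stood away from Col-0 in another direction. In rdr6-11 against Col-0, 20 of 114 measured rows were at least 2-fold higher and 9 lower, against 4.71% and 5.66% of nuclear genes. In the triple mutant against Col-0, 19 of 114 were higher and 9 lower, against 6.08% and 4.61% of nuclear genes. Under median-of-ratios scaling the counts were 14 and 9 in rdr6-11 and 11 and 9 in the triple mutant, and scaled to nuclear genes 38 and 8 in rdr6-11. In each comparison 9 of the higher rows and 2 of the lower were protein-coding. petG (ATCG00600), a small subunit of cytochrome b6f, had 57723 ppm in the triple mutant, 4107 in the double mutant, 7269 in ein5-1, 4861 in ski2-3, 52901 in rdr6-11 and 12437 in Col-0. Its relative log2 ratio against Col-0 was 2.06 (2.03 to 2.09) in the triple mutant and 1.86 (1.83 to 1.89) in rdr6-11. psbM (ATCG00220) had 1359 reads in the triple mutant, 83 in the double mutant, 56 in ein5-1, 82 in ski2-3, 1237 in rdr6-11 and 140 in Col-0. psbM and petG were thus higher in the triple mutant and rdr6-11 than in all of the other 4 libraries. The protein-coding rows at least 2-fold lower were psbT and psaI, a small subunit of photosystem I, at relative log2 ratios of -1.42 and -1.39 in the triple mutant and -1.82 and -1.45 in rdr6-11.

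The ratios of short and long genes differed in their median, but short genes lay at both ends. Across the 88 protein-coding rows, which are not independent of each other, the rank correlation of length with the log2 ratio to Col-0 was -0.43 in the triple mutant and -0.39 in rdr6-11, but 0.04 in the double mutant, 0.06 in ein5-1 and 0.06 in ski2-3. The 17 rows shorter than 200 bases had a median log2 ratio on the chloroplast total of 0.75 in the triple mutant and 0.73 in rdr6-11, and the 33 rows of at least 1000 bases 0.09 and 0.14. Of the 9 higher protein-coding rows in each comparison, 8 were shorter than 200 bases, as were both lower ones, psbT (102 bases) and psaI (114 bases). The rows shorter than 200 bases ran from -1.12 to 2.43 in the triple mutant and from -1.45 to 2.31 in rdr6-11. The large photosystem genes lay below the median, with psaA at -0.72 and psaB at -0.59 in the triple mutant and -0.69 and -0.58 in rdr6-11. The triple mutant and rdr6-11 are also the libraries with mostly even counts among genes with 1 to 20 reads, and the part of that in this relation was not tested.

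**Figure D5:**
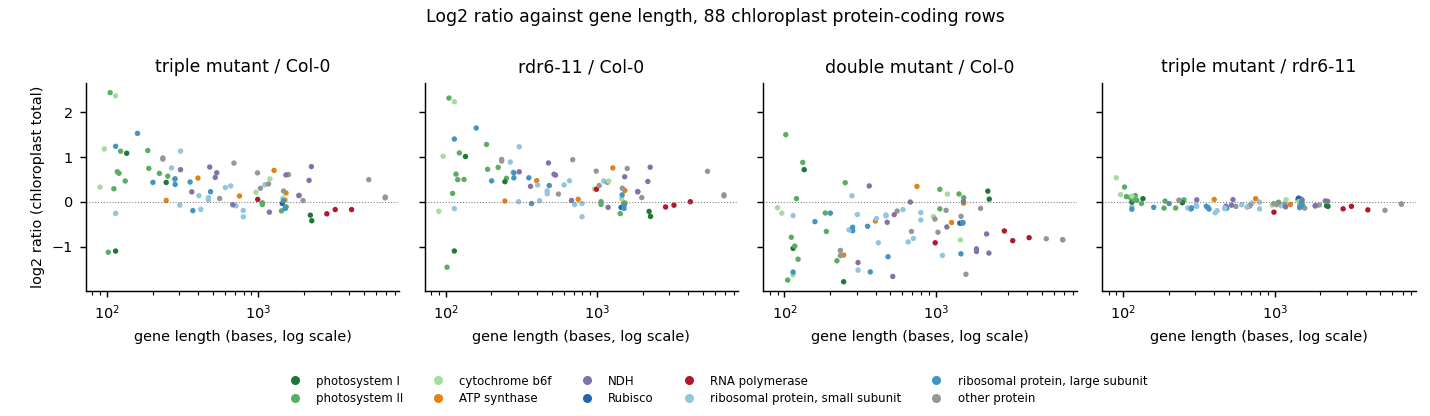
Log2 ratio on the chloroplast total (y axis) against gene length in bases (x axis, log scale) for the 88 protein-coding rows, coloured by class, in 4 comparisons. In the triple mutant and rdr6-11 against Col-0, genes under 200 bases have medians of 0.75 and 0.73 but also include the lowest rows, psbT and psaI.

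Set directly against the double mutant, the triple mutant crosses from one set of libraries to the other, and had the widest spread of the 9 comparisons. Of 113 measured rows, 55 were at least 2-fold higher and 1, psbT, lower, against 12.3% and 10.9% of nuclear genes. Under median-of-ratios scaling these counts were 27 and 13. The relative log2 ratio was 3.33 for psbM, 3.14 for petG, 1.38 for matK and 1.37 for ndhI. It was -3.45 for psbT, -1.37 for psaB, -1.32 for psaA, -1.13 for psbA and -1.05 for atpI. Medians were -0.58 for the photosystems, with 8 of 20 rows above the median, and 0.35 for NDH, with 8 of 12 above.

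The spread among genes read as 1 transcript followed the spread over all protein-coding rows. In 13 transcription units of 2 to 8 genes, the range of log2 ratios inside a unit had a median of 0.83 in the double mutant against Col-0, 0.10 in the triple mutant against rdr6-11, and 0.35 and 0.30 in the double mutant against ein5-1 and ski2-3. The SD over the 88 protein-coding rows in the same comparisons was 0.615, 0.115, 0.353 and 0.297, and whether genes of a unit lay closer together than other genes was not tested. The psbB unit (psbB, psbT, psbH, petB and petD) was the widest against Col-0 in the double mutant, from psbH (-0.84) to psbT (1.97), a range of 2.80. In rdr6-11 against Col-0 the same unit ran from psbT (-1.82) to psbH (0.40), so its ends were exchanged. The petL unit ran from petG (-1.15) to psaJ (1.19) in the double mutant and from rpl33 (0.10) to petG (1.86) in rdr6-11. The rpoB unit was narrow, with a range of 0.22 in the double mutant and 0.12 in rdr6-11, as was the atpB unit in the double mutant, with 0.05.

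Genes of the inverted repeat, a stretch that the plastid genome holds in 2 copies, showed how reads were divided. The 7 pairs of protein-coding copies had log2 ratios that differed by a median of 0.027 and at most 0.309 over the 9 comparisons. Apart from rps12, the counts of the first copy were 0.878 to 1.06 of those of the second. Since reads of the copies are alike, the copies cannot be told apart, and values of rpl2, rpl23, ycf2, ndhB, rps7, ATCG00870 and ATCG01270 are those of the pair. The copies of rrn5S were uneven, with rrn5S.1 at no more than 0.0372 of rrn5S.2 in any library, as were those of rrn16S in ein5-1 (0.30), ski2-3 (0.46) and the double mutant (0.51), so these rows are uncertain. The copies of rrn4.5S were uneven too, with the first at 0.449 to 1 of the second, as were those of trnA, with 89 and 1 reads in the triple mutant and 281 and 24 in Col-0, and their values are uncertain for the same reason.

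Ribosomal and transfer RNA rows differed most from Col-0, in libraries that were depleted of ribosomal RNA. The rrn23S rows had log2 ratios to Col-0 on the chloroplast total of -7.1 and -7.06 in the double mutant and -8.27 and -8.30 in ein5-1, and -2.47 and -2.44 in the triple mutant. The small rrn4.5S rows, which were not left out of the total, were as low (-6.71 and -7.16 in the double mutant). Col-0 thus had more 16S, 23S and 4.5S ribosomal RNA than any mutant library, whereas rrn5S.2 was higher in the triple mutant (3.36) and rdr6-11 (3.28) than in Col-0. trnA.1, an intron-containing transfer RNA gene between rrn16S and rrn23S, had 89 reads in the triple mutant, 2 in the double mutant, 3 in ein5-1, 0 in ski2-3, 160 in rdr6-11 and 281 in Col-0. Its level was at least 152-fold lower in ski2-3 than in Col-0, against a floor of 3 reads per library, with the uneven division between the trnA copies as a limit. Of the 37 transfer RNA rows, 12 to 14 were measured in ein5-1, ski2-3 and the double mutant against Col-0, and 4, 4 and 5 of them were at least 2-fold lower. In these comparisons 0, 0 and 1 were higher, the last being ATCG00850 (log2 ratio 1.08). In the triple mutant and rdr6-11, 9 and 10 of 19 were at least 2-fold higher, led by ATCG00310 (log2 ratio 4.48 and 4.41) and trnV (4.10 and 4.01), and 1 was lower, trnA.1 (-2.50 and -1.64). trnV had 535 reads in the triple mutant, 28 in the double mutant, 31 in ein5-1, 39 in ski2-3, 498 in rdr6-11 and 17 in Col-0.

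The nuclear genes that serve plastid transcription were measured in the same libraries, on the scale of nuclear reads. The 12 polymerase-associated proteins, which the bacterial-type polymerase needs to work in green leaves, were lower in the double mutant than in Col-0 and the single mutants. In the double mutant against Col-0, 10 of 12 were at least 2-fold lower (median -1.09), against the 7.92% of nuclear genes given above. FLN2 stood at -1.49, FLN1 at -1.26, TRXZ at -1.21 and PTAC10 at -1.21. The count was 10 of 12 against ein5-1 (median -1.17) and 3 of 12 against ski2-3 (-0.91), and 0 of 12 in the triple mutant against rdr6-11 (-0.29), in ein5-1 against Col-0 (0.04) and in ski2-3 against Col-0 (-0.18). With the total of nuclear reads as the scale, the counts in the double mutant were 1 of 12 against Col-0 (-0.62), 6 of 12 against ein5-1 (-0.96) and 0 of 12 against ski2-3 (-0.63). On the trimmed-mean scale the leaf markers were lowest in the same library, but as a share of all nuclear reads they were lowest in Col-0. The 3 phage-type polymerases, 1 of which serves mitochondria, had no row past 2-fold in any of the 9 comparisons.

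Of the 6 sigma factors, which direct the bacterial-type polymerase to promoters, SIG5 varied most. It is induced by light and stress and serves a psbD promoter. SIG5 had 808 reads in the triple mutant, 192 in the double mutant, 36 in ein5-1, 69 in ski2-3, 626 in rdr6-11 and 54 in Col-0. Its log2 ratio to Col-0 on nuclear reads was 3.14 in the triple mutant and 3.06 in rdr6-11. The relative log2 ratio of psbD in the same comparisons was -0.36 and -0.42. SIG1 was also at least 2-fold higher in both (1.24 and 1.12), and SIG4 lower (-1.34 and -1.40), while SIG3 stood at -0.94 in the triple mutant and -1.03 in rdr6-11. Among 12 nuclear genes of plastid RNA stability and decay, HCF107, which is needed for the accumulation of psbH RNA, stood at 1.24 in the triple mutant and 1.35 in rdr6-11 against Col-0, where psbH had relative log2 ratios of 0.34 and 0.40. EMB2746, the plastid RNase J, stood at -1.75 and -1.42. In the double mutant against Col-0 the median of this list was -0.72, with 2 of 12 at least 2-fold lower, against 7.92% of nuclear genes. These were CRB (-1.08) and MRL1 (-1.17), a factor that stabilises rbcL RNA. Scaled to the total of nuclear reads, the median was -0.25 and 0 of the 12 were at least 2-fold lower. On the chloroplast total rbcL stood at -0.47 in the same comparison, where the median of the 88 protein-coding rows was also -0.47.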

How the data were processed

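The deposited table held read counts and RPKM values per gene for 6 libraries, per the file headers, beside ratios, p-values and false discovery rates of pairs of libraries. The authors aligned reads with BWA to TAIR9, per the submitters' processing notes. The rule that gave a read to a gene, and any use of strand, is not given in the sources used here. Empty cells of the deposited counts were taken as 0. Because of those cells the columns are recorded as other values, but they are counts and RPKM. The authors' deposited log2 ratios were used only as an alternative, and their p-values, of unstated test, were not used.

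Gene names came from the identifiers, checked by length: the length implied by count and RPKM matched a RefSeq gene (TAIR10.1) within 0.5 bases for 123 of 133 rows, and not for matK, ycf3, ndhD, both copies of ndhB, the 3 rows of rps12, ATCG00870 and ATCG01270. Transfer RNA rows without a unique length keep their identifiers. The values of some ribosomal protein genes are not reported here. Coordinates and sequences were not used, since the builds differ.

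Counts were scaled to the chloroplast total without ATCG00920, ATCG00950, ATCG01180 and ATCG01210, with a pseudocount of 0.5 scaled to the library. For nuclear genes the scale was a trimmed mean of M-values (trims of 0.3 and 0.05), without the 627 nuclear ribosomal and transfer RNA genes in the counts of calls. Python 3.11.15, numpy 2.4.6, pandas 2.3.3 and scipy 1.17.1 were used. The ratio rule was tested on simulated data. Genes were named by rule: in each comparison the 5 highest and 5 lowest measured rows, the most abundant gene of each class, members of repeat pairs, and core genes such as psbA, rbcL, psaA, rpoB and matK. psaC, psaI, ndhI, ndhC and other small photosystem, ribosomal protein and electron-transport genes outside it were named after their values were seen. The members and lists were chosen with earlier results of these data known. Alternatives were 7 other scalings, the authors' ratios, a pseudocount of 5, read minimums of 0 and 1000, and summed repeat copies.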

Additional observations from a re-analysis of the deposited data

Results flagged for a closer look

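A row was flagged if it was at least 2-fold different in the double mutant against Col-0 and of the other sign in the second comparison. The second comparison was the triple mutant against rdr6-11, and the counting interval there also had to leave out 0. Only the core genes and the 5 highest and 5 lowest measured rows of these 2 comparisons were searched, and 2 rows were flagged. Rows outside the search also changed sign, such as psbM (log2 ratios of -1.74 and 0.12) and petG (-1.62 and 0.13). The difference between the 2 effects was not tested. The 2 flagged rows were the copies of the 4.5S ribosomal RNA gene. rrn4.5S.1 had a log2 ratio of 0.40 in the triple mutant against rdr6-11 and -6.71 in the double mutant against Col-0. rrn4.5S.2 had 0.38 and -7.16. The first values rest on 154 reads in the triple mutant and 115 in rdr6-11 for rrn4.5S.1, and 336 and 256 for rrn4.5S.2. By the rule above, the counting intervals of these values leave out 0. Among all genes with few reads, counts in the triple mutant and rdr6-11 were mostly even. Intervals that involve these libraries are therefore taken as too narrow, by an amount that was not computed. Whether the values differ from 0 was not tested beyond counting error. Reads were also divided unevenly between the copies.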

How the results depend on the processing

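Of 108 recomputed counts of rows at least 2-fold different, 87 stayed within 1.5 times the count given, and no named row past 2-fold changed direction under any of the alternatives. In the double mutant against Col-0 (34 rows) the count was 19 with the trimmed mean of M-values over chloroplast genes, 19 with median-of-ratios size factors and 22 with a minimum of 1000 reads. In rdr6-11 against Col-0 (29) it was 46 scaled to nuclear genes, 45 with the authors' deposited RPKM ratios and 17 at 1000 reads, and in the triple mutant against Col-0 (28) it was 17 at 1000 reads. With no read minimum it was 23 in ein5-1 against Col-0 (14), 29 in ski2-3 against Col-0 (19) and 9 in the triple mutant against rdr6-11 (0), and at 1000 reads 7 in ein5-1 and 12 in ski2-3. Scaled to nuclear genes the triple mutant against rdr6-11 gave 1. The read minimums change how many rows were measured, but the share called can change too. In rdr6-11 against Col-0 it was 17.5% higher and 7.89% lower, and at 1000 reads 12.9% and 5.38%. The causes, for the read minimums and for the scalings, were not tested. Of 144 differences between class medians, 135 moved by less than counting error. The sign changed in 1 of the class differences, that of ribosomal proteins less photosystems in ski2-3 against Col-0 (0.01, range -0.03 to 0.04). Leaving out a library was not possible with 1 per genotype. No paired analysis was possible because each group has 1 library, with the same number 1.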
